A study of Homo sapiens with 115 samples.

Results

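The cells described here are 28 budding radiation-tolerant persister (RTP) cells of the p53+/+ HCT116 line, set against 6 unirradiated cells of the same line. They were chosen by label alone: genotype p53plus with stage [B] for the budding cells, and genotype p53plus with stage [N] for the unirradiated cells, which together make 34 cells, beside 81 others in the series. HCT116 is a human colorectal carcinoma line, and its p53+/+ and p53-/- forms are lines derived from it by homologous recombination. The study followed both lines after X-rays: giant cells that outlived the dose were picked before budding (stage [P], day 7), while budding (stage [B], day 10), as freshly budded daughter cells (stage [S], day 10) and from regrown cultures (stage [R], day 30).

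The [B] cells carried intact p53, had received 8 Gy and were taken at day 10. The [N] cells carried intact p53 and were taken at day 0. Their label lists the same 8 Gy, while the study describes them as untreated, and they are called unirradiated here. Every cell was chosen by eye under a microscope and drawn up with a pipette, so a [B] cell is a cell that an observer judged to be budding. Each line is a single engineered line, and no label names a culture. For this reason all cells of a stage count as 1 sample, no p-value was computed from cells, and each value below is the middle and the spread over cells picked from that stage.

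RTP cells are large, polyploid cells that stop dividing after irradiation, persist for days and may later give off small daughter cells by budding. In cells with intact p53, DNA damage stabilises p53, which induces CDKN1A (p21), an inhibitor of cyclin-dependent kinases. With these kinases held off, the DREAM repressor complex occupies cell cycle promoters, through E2F sites in genes of DNA replication and through the cell cycle genes homology region (CHR) in genes of mitosis. Proliferating colon carcinoma cells transcribe both classes of gene in turn in each cycle.

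The values are read counts per gene and cell, scaled to CPM (counts scaled to a total of 1e+06) of each cell's total. CPM is a share of a cell's RNA and not an amount, so in a giant cell an equal CPM can stand for more molecules. Between stages, the difference is the median over [B] cells of log2(CPM + 1) less the median over [N] cells, which understates the change of genes with low values. A gene was kept where the mean of both group medians was at least 5 CPM, which left 9616 of 43386 table entries, and a difference of at least 2 on the log2 scale (4-fold) is called past 4-fold. Of the kept genes, 191 were past 4-fold higher in [B] cells (1.99%) and 269 were past 4-fold lower (2.80%), and the median difference over all kept genes was -0.08. TRIM11 and SAMD4A lay just inside the limit on the higher side at 2.004 and 2.005, with RGS16 and HLA-B_2 just outside at 1.996 and 1.997, and LRR1 and CBX5 lay just inside on the lower side at -2.001 and -2.01, with KNTC1 and SNX10 just outside at -1.999 and -1.997.

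Several properties of the libraries moved with the stage. The [B] cells held 4056329 to 81951140 counts and 5911 to 18379 detected genes, and the [N] cells 12486187 to 51580888 counts and 13715 to 15004 detected genes. Mitochondrial transcripts took 0.021% to 10.97% of counts in [B] cells (median 4.75%) and 0.764% to 1.27% in [N] cells (median 1.05%). This share covers mitochondrial rRNA and tRNA but not mRNA. Of 15 listed mitochondrial genes only 2 were found, the rRNA entries RNR1 and RNR2. The 50 highest genes took 16.9% to 36.9% in [B] cells and 15.8% to 18.1% in [N] cells. Names of the [B] cells begin with 9 different number prefixes and those of the [N] cells with 2 others, and none is shared. The labels do not say what these prefixes mean, so a stage and its prefixes cannot be told apart.

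Further facts touch the results below. The 6 [N] cells were uneven: [N] cells 0109N2, 0109N3 and 0109N4 correlated with one another at Spearman rho 0.93 to 0.95 across kept genes, while 1115N12, the lone [N] cell of its prefix, correlated with 0109N2 at 0.74. JUP, for example, was 5.82, 13.4 and 24.9 CPM in 0109N2, 0109N3 and 0109N4 and 42.7, 95.1 and 113.8 CPM in 0109N5, 1115N12 and 0109N1. With 0109N1, 0109N5 or 1115N12 left out, 321, 319 or 312 genes were past 4-fold higher in place of 191. Genes rich in G and C also tended to be higher in [B] cells, with a Spearman rho of 0.48 between the difference and the GC share of the longest transcript across 9471 kept genes, which are not independent of one another. The median GC share was 57.2% among genes past 4-fold higher, 41.8% among those past 4-fold lower and 47.1% over all. Among gene lists described below, it was 57.4% for hemidesmosomes, 56.2% for keratins and 55.9% for the BCL2 family. For MHC class I it was 55.4%, for immediate early genes 55.3% and for secreted factors 54.3%. The mean GC share of a cell's counts was 46.4% to 51.9% in [B] cells and 46.2% to 48.2% in [N] cells.

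**Figure D1:**
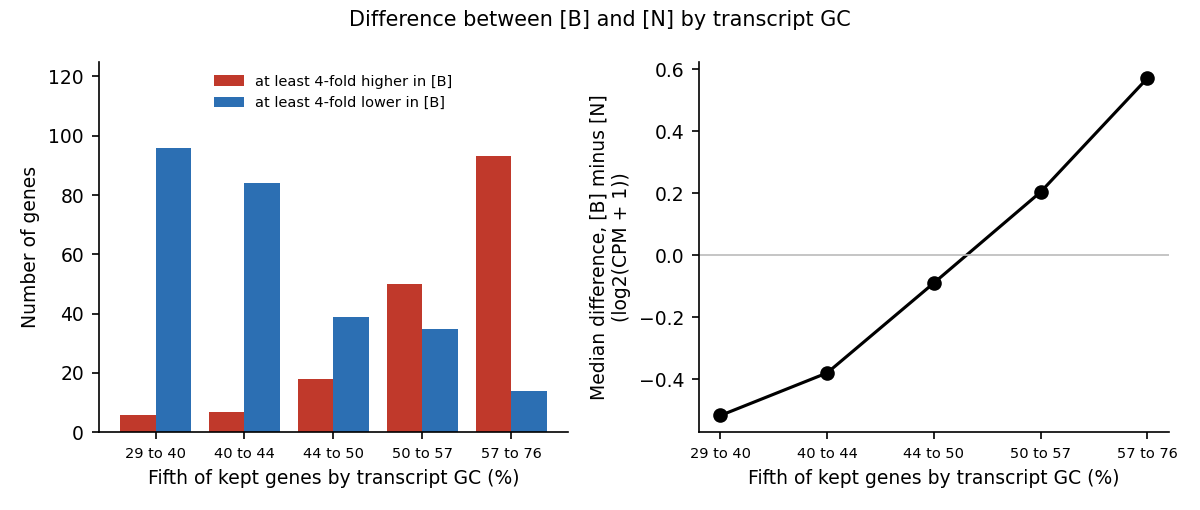
GC content and the [B] minus [N] difference. Left, counts of genes past 4-fold higher and lower in [B] cells in 5 equal classes of 9471 kept genes by GC share of the longest transcript; right, the median difference of all genes in each class. Higher genes numbered 6 in the class lowest in GC and 93 in the highest, lower genes 96 and 14, and the median difference was -0.52 in the lowest class and 0.57 in the highest.

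Genes of mitosis had the lowest median difference of all lists examined. Of the 45 listed genes for mitotic entry, spindle and kinetochore, all 45 were kept, all lay below 0, and 42 were past 4-fold lower in [B] cells, with a median difference of -3.49. The 3 not past the limit were BUB3 at -1.39, INCENP at -1.44 and CDC25B at -0.62. The mean log2(CPM + 1) over the list was 0.42 to 6.91 in [B] cells (median 3.56) and 6.602 to 7.24 in [N] cells (median 6.81), and 26 of the 28 [B] cells lay below every [N] cell. The list's median GC share was 43.1%. With the median of genes of like GC content subtracted, its median difference was -3.24.

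KIF11, the kinesin that pushes spindle poles apart, was 0 to 127 CPM in [B] cells, with a median of 1.91, against 36.5 to 71.6 CPM in [N] cells, with a median of 52.3. Its difference was -4.20, and 27 of the 28 [B] cells were below every [N] cell. TTK, the spindle checkpoint kinase MPS1, had medians of 4.33 CPM in [B] cells and 97.03 CPM in [N] cells (difference -4.21). In both genes the [B] median was far below the [N] median but above 0, and every [N] cell held reads.

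NEK2, a centrosome kinase, had medians of 3.95 CPM in [B] cells and 84.1 CPM in [N] cells (difference -4.16). SPC25, a subunit of the NDC80 complex that ties kinetochores to microtubules, had medians of 2.90 CPM in [B] cells and 68.8 CPM in [N] cells (difference -4.15). For each of these 2 genes at least 25 [B] cells were below every [N] cell. CCNB1, the mitotic cyclin B1, was 0 to 1391 CPM in [B] cells, with a median of 71.1, against 582 to 1004 CPM in [N] cells, with a median of 828. Its partner kinase CDK1 was 0 to 713 CPM in [B] cells, with a median of 26.5, against 271 to 479 CPM in [N] cells, with a median of 365. The highest CCNB1 value among [B] cells, in cell 1082G, was above that of every [N] cell, and the other 27 were below all of them.

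The promoters of 5 genes are printed because the mitosis genes share a sequence that the choice of list did not use. In the 300 bases from 250 before to 50 after the RefSeq start, the letters TTTGAA of the CHR, searched on both strands, occurred in 25 of 37 mitosis genes with a window (67.6%), in 15.4% of all 27305 windows and in 9.30% of the 7492 windows of kept genes. CCAAT, the letters bound by the factor NF-Y, searched on both strands, occurred in 29 of those 37 (78.4%) and in 35.7% of all windows. The variant TTCGAA, which reads the same on both strands, occurred in 4 of the 37 (10.8%) and in 1.45% of all windows. A match of letters is a description and not a bound site. Windows were printed only where the letters were found, in order of the difference among genes past 4-fold. TTK and NEK2, with differences of like size, were passed over because no window with the letters was found for them. The 4 mitosis windows below hold TTTGAA or its reverse complement TTCAAA and, except in NDC80, CCAAT or its reverse complement ATTGG, and all these letters are in capitals. They come from RefSeq for GRCh38.p14 and run 5′ to 3′ on the strand of the gene: KIF11 at chr10:92592880-92593179 (plus strand), SPC25 at chr2:168890381-168890680 (minus strand), NDC80, the namesake of its complex, at chr18:2571307-2571606 (plus strand), and TOP2A, the topoisomerase that untangles sister DNA, at chr17:40417847-40418146 (minus strand).
KIF11: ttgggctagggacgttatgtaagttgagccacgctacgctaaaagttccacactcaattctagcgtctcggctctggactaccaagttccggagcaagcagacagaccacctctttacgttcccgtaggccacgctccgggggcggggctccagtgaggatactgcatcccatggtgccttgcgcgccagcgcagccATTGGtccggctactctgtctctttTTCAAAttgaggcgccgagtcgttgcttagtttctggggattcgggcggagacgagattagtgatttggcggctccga
SPC25: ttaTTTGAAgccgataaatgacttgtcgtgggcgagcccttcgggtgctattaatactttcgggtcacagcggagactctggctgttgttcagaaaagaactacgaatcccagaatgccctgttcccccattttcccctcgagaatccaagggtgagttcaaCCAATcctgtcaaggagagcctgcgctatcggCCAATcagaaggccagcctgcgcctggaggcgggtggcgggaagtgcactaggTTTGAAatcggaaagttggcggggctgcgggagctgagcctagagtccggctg
NDC80: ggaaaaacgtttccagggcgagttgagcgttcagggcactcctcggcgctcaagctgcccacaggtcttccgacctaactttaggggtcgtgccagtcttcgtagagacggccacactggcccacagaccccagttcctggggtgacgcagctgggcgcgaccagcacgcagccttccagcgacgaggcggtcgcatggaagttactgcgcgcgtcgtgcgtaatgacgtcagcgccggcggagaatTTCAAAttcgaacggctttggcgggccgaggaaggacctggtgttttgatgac
TOP2A: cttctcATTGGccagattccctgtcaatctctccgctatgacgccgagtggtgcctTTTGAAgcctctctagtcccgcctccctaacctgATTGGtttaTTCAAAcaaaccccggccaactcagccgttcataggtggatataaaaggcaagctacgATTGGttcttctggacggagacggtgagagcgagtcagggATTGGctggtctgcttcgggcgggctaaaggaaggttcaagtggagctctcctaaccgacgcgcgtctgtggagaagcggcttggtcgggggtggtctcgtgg

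In KIF11 the CHR letters begin 28 bases before the start, in NDC80 3 bases before it, in SPC25 247 and 3 bases before it and in TOP2A 194 and 151 bases before it. NDC80 had medians of 5.19 CPM in [B] cells and 101.3 CPM in [N] cells (difference -4.05). TOP2A was 0 to 694 CPM in [B] cells, with a median of 6.22, against 74.5 to 210 CPM in [N] cells, with a median of 108.9 (difference -3.93). TOP2A in [B] cells ranged beyond both ends of the [N] cells, with 24 cells below all of them and 1, cell 80825, above.

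Genes of cytokinesis were lower in part. Of 16 listed, 15 were kept and 7 were past 4-fold lower, none higher, with a median difference of -1.73. The parts made for the central spindle and abscission were low: KIF20A, a kinesin of the central spindle, had medians of 3.75 CPM in [B] cells and 85.6 CPM in [N] cells (difference -4.19), KIF14, a kinesin of the midbody, 0.918 CPM in [B] cells and 26.4 CPM in [N] cells (-3.83), and the microtubule bundler PRC1 14.7 CPM in [B] cells and 173 CPM in [N] cells (-3.45). KIF23, a subunit of centralspindlin, had medians of 9.36 CPM in [B] cells and 112.3 CPM in [N] cells (-3.45). CEP55, which recruits the abscission machinery, had medians of 8.91 CPM in [B] cells and 86.5 CPM in [N] cells (-3.15). The filament proteins of the furrow named here lay on both sides of 0, and none was past 4-fold lower. MYH9, the heavy chain of non-muscle myosin IIA, was 13.4 to 438 CPM in [B] cells, with a median of 103.04, against 29.3 to 50.9 CPM in [N] cells, with a median of 38.8 (difference 1.40), with 22 [B] cells above every [N] cell. Septin 9 had medians of 124.6 CPM in [B] cells and 44.2 CPM in [N] cells (difference 1.62), septin 2 257 CPM in [B] cells and 299 CPM in [N] cells (-0.22) and septin 7 167 CPM in [B] cells and 322 CPM in [N] cells (-0.94). CHR letters occurred in 8 of 15 cytokinesis windows (53.3%).

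Genes of DNA replication were lower by a smaller amount. All 53 listed genes were kept, 26 were past 4-fold lower and none higher, 46 were at least 2-fold lower, and the median difference was -1.96. The list level was 1.65 to 6.71 in [B] cells (median 4.47) and 6.01 to 6.79 in [N] cells (median 6.45), with 26 [B] cells below every [N] cell. TTTGAA occurred in 1 of 44 replication windows (2.27%).

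CCNE2, cyclin E2 of the G1 to S transition, was 0 to 46.6 CPM in [B] cells, with a median of 0.559, against 22.8 to 77.6 CPM in [N] cells, with a median of 34.7 (difference -4.52). CCNA2, the cyclin of S phase and G2, was 0 to 142 CPM in [B] cells, with a median of 10.3, against 88.8 to 314 CPM in [N] cells, with a median of 151 (-3.75). MCM10, an initiation factor, had medians of 6.43 CPM in [B] cells and 81.2 CPM in [N] cells (-3.56). In all 3 genes at least 26 [B] cells lay below every [N] cell.

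GMNN, geminin, which blocks relicensing of replicated DNA, had medians of 23.6 CPM in [B] cells and 227 CPM in [N] cells (difference -3.20). Its counterpart CDT1, the licensing factor that geminin holds, had medians of 24.6 CPM in [B] cells and 30.4 CPM in [N] cells (-0.27). Geminin was thus past 4-fold lower while CDT1 was near 0 in difference. Cyclin E1, encoded by CCNE1, had medians of 43.7 CPM in [B] cells and 49.1 CPM in [N] cells (-0.16), in contrast to cyclin E2. The polymerase delta catalytic subunit POLD1 had medians of 12.6 CPM in [B] cells and 11.9 CPM in [N] cells (0.08) and was the 1 member above 0. RRM2, the regulated subunit of ribonucleotide reductase, was 0.206 to 489 CPM in [B] cells, with a median of 87.1, against 555 to 1016 CPM in [N] cells, with a median of 684 (-3.13), and every [B] cell was below every [N] cell.

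Genes of homologous recombination and the Fanconi anaemia pathway followed. Of 24 listed, 23 were kept, 13 were past 4-fold lower, none was higher, and the median difference was -2.19. EXO1, the nuclease that resects DNA ends, had medians of 1.69 CPM in [B] cells and 41.2 CPM in [N] cells (difference -3.97). RAD51AP1, an enhancer of strand exchange, had medians of 3.17 CPM in [B] cells and 51.0 CPM in [N] cells (-3.64). BARD1, the obligate partner of BRCA1, had medians of 1.30 CPM in [B] cells and 21.7 CPM in [N] cells (-3.31), and the helicase BLM 1.15 CPM in [B] cells and 20.4 CPM in [N] cells (-3.31). TTTGAA occurred in 2 of 21 windows of this list (9.52%).

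**Figure D2:**
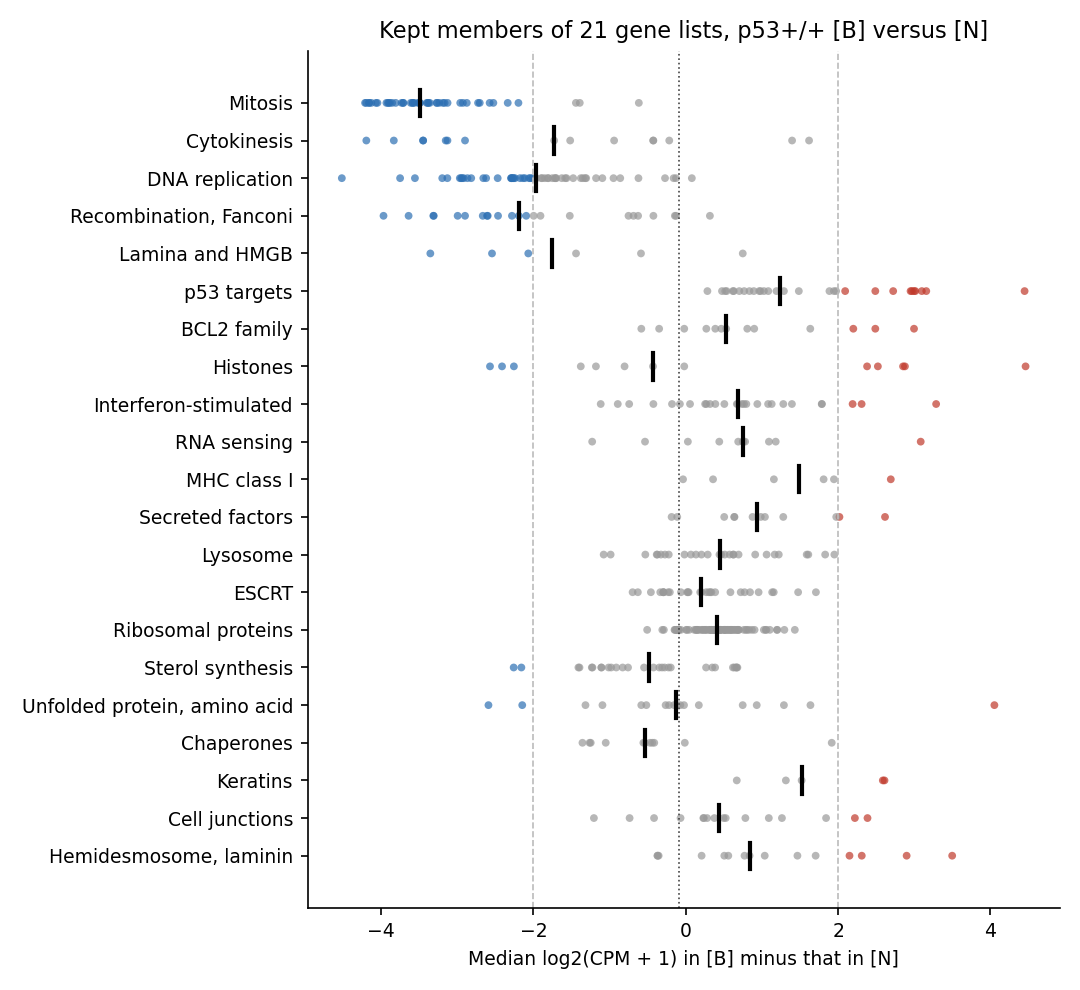
[B] minus [N] differences of the genes in each list. Each point is 1 kept gene, placed by the median of log2(CPM + 1) in p53+/+ [B] cells less that in [N] cells, blue where past 4-fold lower and red where past 4-fold higher. Black bars mark the list's median, dashed lines the 4-fold limits and the dotted line the median of all kept genes. The mitosis genes centre at -3.49, replication at -1.96 and the p53 targets at 1.24, while all kept genes centre at -0.08.

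Chromatin and nuclear envelope genes gave a mixed picture. HMGB2, a DNA-bending chromatin protein, was 0 to 474 CPM in [B] cells, with a median of 101.6, against 579 to 1302 CPM in [N] cells, with a median of 1041 (difference -3.35), without overlap between stages. Its relative HMGB1 was 157 to 1402 CPM in [B] cells, with a median of 358, against 1198 to 2643 CPM in [N] cells, with a median of 2104 (-2.54), with 26 [B] cells below every [N] cell. LBR, the lamin B receptor, had medians of 30.8 CPM in [B] cells and 132 CPM in [N] cells (-2.07). These 3 were the lower members past 4-fold of 6 kept among 7 listed lamina and HMGB genes. LMNB1, the lamin B1 gene and a usual marker of senescence by its loss, did not pass the filter, with medians of 0.371 CPM in [B] cells and 4.19 CPM in [N] cells. LMNA, encoding lamins A and C, had medians of 192 CPM in [B] cells and 146 CPM in [N] cells (0.75).

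The histone list held genes on both sides. Among 13 genes, 5 were past 4-fold higher, 3 were past 4-fold lower and the median difference was -0.43. The 5 higher ones all belong to the replication-dependent clusters, which outside S phase can give polyadenylated transcripts: HIST1H2BD was 7.22 to 136 CPM in [B] cells, with a median of 57.1, against 0 to 10.99 CPM in [N] cells, with a median of 1.86 (difference 4.46), and HIST1H1C, the linker histone H1.2, was 4.52 to 336 CPM in [B] cells, with a median of 65.4, against 2.56 to 20.4 CPM in [N] cells, with a median of 8.07 (2.88). HIST2H2BE had medians of 14.3 CPM in [B] cells and 1.30 CPM in [N] cells (2.85), HIST1H2BK 83.1 CPM in [B] cells and 13.7 CPM in [N] cells (2.52) and HIST1H2AC 17.9 CPM in [B] cells and 2.63 CPM in [N] cells (2.38). The lower ones were the variants H2AFZ (H2A.Z), with medians of 742 CPM in [B] cells and 4509.6 CPM in [N] cells (-2.57), and H2AFV, with 60.9 CPM in [B] cells and 329.9 CPM in [N] cells (-2.41), and HIST1H4C, also a gene of the replication-dependent clusters, with 204 CPM in [B] cells and 1010.3 CPM in [N] cells (-2.26). Histone genes of 1 cluster are near copies between which reads could be split, so each single value is uncertain.

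Direct targets of p53 lay above the level of unirradiated cells. Of 32 listed genes 30 were kept, all 30 lay above 0, 10 were past 4-fold higher, none was lower, and the median difference was 1.24. The list level was 3.73 to 6.89 in [B] cells (median 5.96) and 3.998 to 4.91 in [N] cells (median 4.22), with 24 [B] cells above every [N] cell and 2 below all of them, 1082G and 80812. The list's median GC share was 49.96%.

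CDKN1A, the p21 inhibitor of cyclin-dependent kinases, was 145 to 5414 CPM in [B] cells, with a median of 1485, against 35.6 to 255 CPM in [N] cells, with a median of 72.4. Its difference was 4.45, and 26 of 28 [B] cells were above every [N] cell. The exceptions were cell 1082G at 187 CPM and cell 80825 at 145 CPM, which lay within the [N] range. MDM2, the ubiquitin ligase that closes the p53 feedback loop, was 0 to 588 CPM in [B] cells, with a median of 73.0, against 22.6 to 58.5 CPM in [N] cells, with a median of 36.4. Its difference was 0.98, with 17 [B] cells above every [N] cell and 5 below all of them. CDKN1A and MDM2, both classic p53 targets, thus differed in size and in evenness over cells.

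GDF15, a secreted stress cytokine, was 208 to 3359.8 CPM in [B] cells, with a median of 1225, against 8.12 to 385 CPM in [N] cells, with a median of 143 (difference 3.10). TP53I3, a quinone oxidoreductase also named PIG3, was 14.01 to 697 CPM in [B] cells, with a median of 142, against 9.34 to 26.99 CPM in [N] cells, with a median of 15.1 (3.16). PHLDA3, an inhibitor of AKT, was 0 to 189 CPM in [B] cells, with a median of 65.1, against 2.46 to 26.2 CPM in [N] cells, with a median of 7.84 (3.01). At least 25 [B] cells were above every [N] cell in each of these 3 genes.

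The antiproliferative gene BTG2 had medians of 97.98 CPM in [B] cells and 11.7 CPM in [N] cells (difference 2.97), and the polo-like kinase PLK2 of 235 CPM in [B] cells and 34.7 CPM in [N] cells (2.72). The death receptors FAS, with medians of 120.1 CPM in [B] cells and 29.8 CPM in [N] cells (1.97), and TNFRSF10B, with 97.2 CPM in [B] cells and 48.1 CPM in [N] cells (1.03), were higher without passing 4-fold. PINCR, a p53-induced noncoding RNA outside the list, was 0 to 153 CPM in [B] cells, with a median of 23.1, against 0 to 1.26 CPM in [N] cells, with a median of 0 (4.59). The [N] median of PINCR was 0, so no fold is given.

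**Figure D3:**
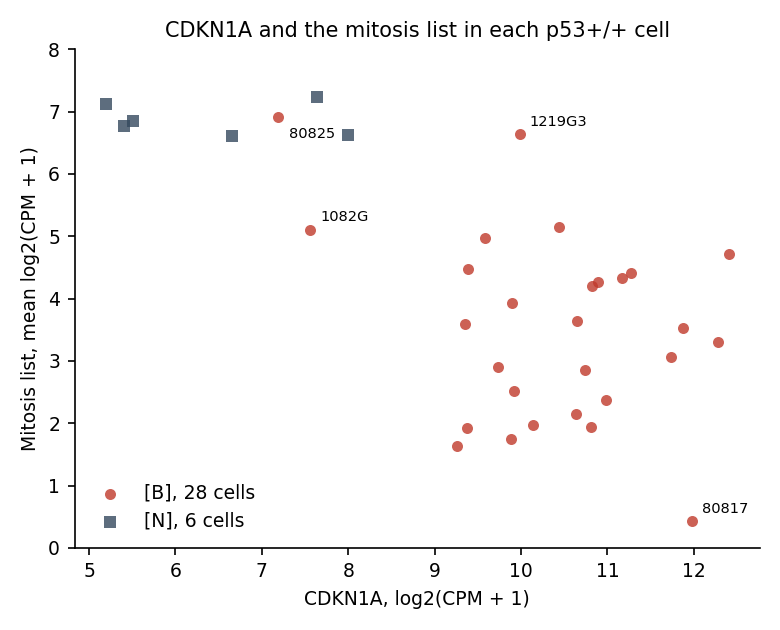
CDKN1A and the mitosis level in single cells. Each point is 1 cell, with log2(CPM + 1) of CDKN1A across and the mean log2(CPM + 1) over the 45 mitosis genes upwards. The [B] cells lie at higher CDKN1A and lower mitosis level than the [N] cells, except 1219G3 and 80825, whose mitosis levels of 6.64 and 6.91 lie within the [N] range, and 1082G and 80825, whose CDKN1A does.

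Among regulators of apoptosis the genes past 4-fold higher were pro-apoptotic, while 10 of the kept genes lay above 0. Of 16 listed BCL2 family genes, 13 were kept and 3 were past 4-fold higher: BBC3 (PUMA), with medians of 17.9 CPM in [B] cells and 1.95 CPM in [N] cells (difference 3.0), BAX, with 41.3 CPM in [B] cells and 9.53 CPM in [N] cells (2.49), and BIK, with 246 CPM in [B] cells and 52.8 CPM in [N] cells (2.20). BBC3 and BAX are also in the p53 list. The pro-survival genes MCL1, with medians of 69.2 CPM in [B] cells and 49.7 CPM in [N] cells (0.53), and BCL2L1, with 48.9 CPM in [B] cells and 37.5 CPM in [N] cells (0.39), also lay above 0 but were not past the limit.

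Among G1 cyclins and other inhibitors, 6 of 11 were kept. CCND1, cyclin D1, was 352 to 1757 CPM in [B] cells, with a median of 987, against 94.3 to 761 CPM in [N] cells, with a median of 222 (difference 2.22), the 1 member past 4-fold. CDK4, its partner kinase, was 65.1 to 371 CPM in [B] cells, with a median of 181, against 263 to 391 CPM in [N] cells, with a median of 289 (-0.67), with 26 [B] cells below every [N] cell. CDKN2A, which encodes p16 and ARF, was 0 to 128 CPM in [B] cells, with a median of 43.2, against 75.1 to 127 CPM in [N] cells, with a median of 114.9 (-1.39), also with 26 [B] cells below every [N] cell. CDKN1B, the p27 inhibitor, did not pass the filter, with medians of 2.61 CPM in [B] cells and 7.17 CPM in [N] cells.

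Interferon-stimulated genes were higher in part and varied widely between cells. Of 44 listed effectors 27 were kept, 3 were past 4-fold higher, none was lower, and the median difference was 0.68. The list level was 1.95 to 4.78 in [B] cells (median 3.27) and 2.41 to 2.97 in [N] cells (median 2.73), with 18 [B] cells above every [N] cell and 2 below all of them. ISG15, the ubiquitin-like modifier, was 245 to 19789 CPM in [B] cells, with a median of 1548, against 141 to 426 CPM in [N] cells, with a median of 316 (difference 2.31), with 26 [B] cells above every [N] cell.

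The 5 [B] cells highest in ISG15 were 80819 at 19789 CPM, 1083G at 15935 CPM, the cell of title ending in LBK1839 at 15160.1 CPM, 1085G at 11911 CPM and 8029 at 7034 CPM, and they come from 4 different name prefixes. OASL, an antiviral protein of the oligoadenylate synthetase family, was 0 to 785 CPM in [B] cells, with a median of 15.8, against 0 to 4.99 CPM in [N] cells, with a median of 0.794 (3.29). IFI6 was 20.02 to 860.1 CPM in [B] cells, with a median of 69.6, against 9.43 to 25.4 CPM in [N] cells, with a median of 14.5 (2.19). IFIT1, an RNA-binding effector, had medians of 10.4 CPM in [B] cells and 4.36 CPM in [N] cells (1.08) and reached 739.7 CPM in 1 [B] cell. MX1 had a median of 0 in both stages.

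The interferon-stimulated response element was searched as GAAANNGAA on both strands, where overlapping matches count, and occurred in 23 of 35 windows of this list (65.7%), in 8.29% of all windows and in 6.07% of those of kept genes. The example printed had to hold these letters, and OASL, with a larger difference, was passed over by this rule. ISG15 is printed, at chr1:1013247-1013546 on the plus strand of GRCh38.p14, from RefSeq, with its 3 overlapping matches in capitals.
ISG15: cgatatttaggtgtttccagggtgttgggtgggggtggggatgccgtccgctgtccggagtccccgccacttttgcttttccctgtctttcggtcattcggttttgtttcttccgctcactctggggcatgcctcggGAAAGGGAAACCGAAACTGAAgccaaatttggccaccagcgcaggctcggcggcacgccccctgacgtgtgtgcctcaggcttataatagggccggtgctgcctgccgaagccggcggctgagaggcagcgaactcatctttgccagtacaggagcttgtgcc

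Of the RNA sensing pathway, 11 of 13 listed genes were kept and 1 was past 4-fold higher. This was DDX58, which encodes RIG-I, the sensor of double-stranded RNA ends, at 0 to 322 CPM in [B] cells, with a median of 34.7, against 0.95 to 19.6 CPM in [N] cells, with a median of 3.36 (difference 3.08). IFIH1, which encodes the related sensor MDA5, had medians of 8.64 CPM in [B] cells and 6.22 CPM in [N] cells (0.44). TBK1, the kinase downstream of the sensors, was 1.10 to 151 CPM in [B] cells, with a median of 30.3, against 62.4 to 90.9 CPM in [N] cells, with a median of 72.3 (-1.23). Sensor and kinase thus lay on opposite sides of 0.

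Of MHC class I antigen presentation, 6 of 14 genes were kept and 1 was past 4-fold higher, with a median difference of 1.48. HLA-B was 20.5 to 94.7 CPM in [B] cells, with a median of 49.2, against 9.42 to 15.9 CPM in [N] cells, with a median of 13.3 (difference 1.81), without overlap between stages. HLA-C had medians of 52.6 CPM in [B] cells and 13.1 CPM in [N] cells (1.95). The table holds further numbered entries under these names, between which reads of these similar genes could be split, so their single values are uncertain. B2M, the light chain shared by all class I molecules, had medians of 1411 CPM in [B] cells and 1129 CPM in [N] cells (0.36). TAP1, a peptide transporter, had a count of 0 in all 34 cells. The full list, kept or not, had a median difference of 0.71.

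**Figure D4:**
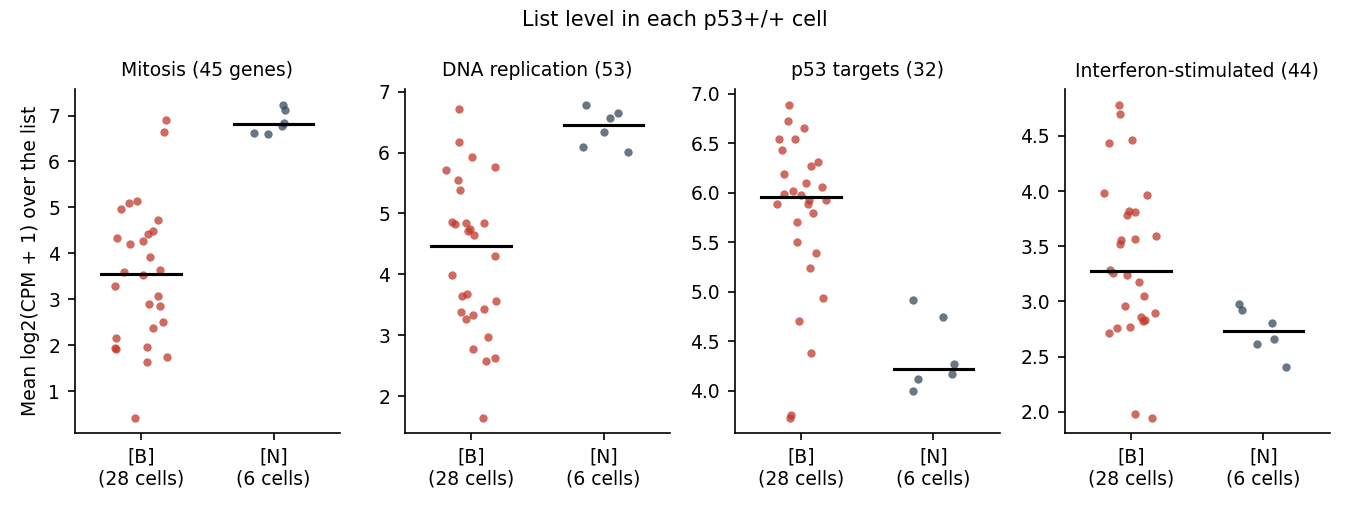
Level of gene lists in every cell. Each point is the mean log2(CPM + 1) over the list's genes in 1 p53+/+ cell, [B] cells left of [N] cells, and bars are medians over cells. Mitosis runs from 0.42 to 6.91 in [B] cells against 6.602 to 7.24 in [N] cells, and p53 targets from 3.73 to 6.89 in [B] cells against 3.998 to 4.91 in [N] cells.

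Most secreted factors were at or near 0 in these cells. Of 37 listed, 12 were kept, and 21 were detected in under 50% of [B] cells after every cell was thinned to 4056329 counts. IL6 had no count in any of the 34 cells, and a count of 0 allows up to 0.74 CPM in the shallowest [B] cell and 0.24 CPM in the shallowest [N] cell (3 counts of the total), while CXCL8 had medians of 0.64 CPM in [B] cells and 1.70 CPM in [N] cells. IGFBP6, which binds insulin-like growth factor II, was 22.5 to 12099 CPM in [B] cells, with a median of 310.1, against 40.4 to 186 CPM in [N] cells, with a median of 75.9 (difference 2.02). AREG, amphiregulin, an EGF receptor ligand, was 18.7 to 2179 CPM in [B] cells, with a median of 582, against 108.3 to 259.8 CPM in [N] cells, with a median of 148 (1.98). IGFBP6 was among the 2 members past 4-fold, AREG was just short of it, and with unkept members included the list's median difference was 0.

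Lysosomal genes were slightly higher as a group, and ESCRT genes differed little. Of 31 lysosomal genes 28 were kept, none was past 4-fold in either direction, and the median difference was 0.45. By the lysosomal list level, 14 [B] cells were above every [N] cell, 3 below all of them and 11 within their range. CTSD, the protease cathepsin D, was 8.05 to 387 CPM in [B] cells, with a median of 168, against 5.12 to 136 CPM in [N] cells, with a median of 59.3 (difference 1.95). Of 31 ESCRT genes, whose products cut membrane necks, 29 were kept, none was past 4-fold, and the median difference was 0.21. VPS37B, of ESCRT-I, had medians of 35.1 CPM in [B] cells and 10.2 CPM in [N] cells (1.71), CHMP4C, an abscission checkpoint subunit, 14.3 CPM in [B] cells and 4.53 CPM in [N] cells (1.48), and CHMP1B 171 CPM in [B] cells and 77.3 CPM in [N] cells (1.16).

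The study picked its gene panels on these same cells, so their values are no independent evidence, and only part of each panel was examined here. CST3, the secreted protease inhibitor cystatin C, was 121 to 2743 CPM in [B] cells, with a median of 839.9, against 57.6 to 167 CPM in [N] cells, with a median of 101.5 (difference 3.04). All [B] cells except 80825 were above every [N] cell in CST3. SNCG, gamma-synuclein, was 13.1 to 566 CPM in [B] cells, with a median of 63.6, against 9.15 to 76.5 CPM in [N] cells, with a median of 55.1 (0.20), and 12 [B] cells were above every [N] cell while none was below. SNCG thus had a longer upper tail in [B] cells at nearly equal medians.

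Of the 5 genes examined from the first panel (CST3, RN7SL2, RPS12, SELENOM and KRT19), 3 were past 4-fold higher and the median difference was 2.61. SELENOM, a selenoprotein of the endoplasmic reticulum, had medians of 204 CPM in [B] cells and 74.0 CPM in [N] cells (difference 1.45). The 27 genes examined from the budding panel all lay above 0, and 2 of them, SERTAD1 and IGFBP6, were past 4-fold higher, with a median of 1.03. These 27 genes had a median GC share of 60.8%, and with the median of genes of like GC content subtracted their median was 0.34. SERTAD1, a CDK4-binding regulator, was 0.693 to 306 CPM in [B] cells, with a median of 107.1, against 16.3 to 52.5 CPM in [N] cells, with a median of 23.8 (2.12). C9orf16, now named BBLN, had medians of 145 CPM in [B] cells and 39.6 CPM in [N] cells (1.85), and CDC37, a kinase chaperone, 137 CPM in [B] cells and 42.5 CPM in [N] cells (1.92).

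The genes with the largest positive differences were hair keratin-associated proteins, which form the matrix between keratin filaments in hair. KRTAP3-1 was 0.499 to 451 CPM in [B] cells, with a median of 65.7, against 0 to 0.0658 CPM in [N] cells, with a median of 0 (difference 6.05). KRTAP2-3 was 10.3 to 2028 CPM in [B] cells, with a median of 255, against 0.281 to 9.05 CPM in [N] cells, with a median of 2.96 (6.02). Neither gene overlapped between stages. KRTAP2-3 and its neighbour KRTAP2-4 are close copies in 1 cluster and the table holds numbered entries of several of them, so which copy the reads came from is uncertain. CEACAM1, an adhesion and signalling molecule of epithelia, was 0 to 512 CPM in [B] cells, with a median of 27.6, against 0 to 1.54 CPM in [N] cells, with a median of 0 (4.84). CPA4, a carboxypeptidase, was 41.5 to 2417 CPM in [B] cells, with a median of 543, against 8.14 to 220.3 CPM in [N] cells, with a median of 26.2 (4.40). The [N] medians of KRTAP3-1 and CEACAM1 were 0.

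PLSCR3, a phospholipid scramblase, was 0 to 149 CPM in [B] cells, with a median of 55.7, against 0 to 32.9 CPM in [N] cells, with a median of 0.0468 (difference 5.76). It overlaps a read-through gene model, so this value is uncertain. On the other side, BMI1, a Polycomb subunit, was 0 to 48.3 CPM in [B] cells, with a median of 0, against 0 to 81.5 CPM in [N] cells, with a median of 35.8 (-5.20), and RPL17-C18orf32, a read-through of 2 genes, was 0 to 119 CPM in [B] cells, with a median of 0, against 0 to 77.5 CPM in [N] cells, with a median of 45.5 (-5.21). Both share sequence with overlapping entries, both reached 0 in at least 1 [N] cell, and neither had a [B] cell below every [N] cell. NEIL3, a DNA glycosylase of replicating cells, was 0 to 48.1 CPM in [B] cells, with a median of 0, against 19.9 to 86.6 CPM in [N] cells, with a median of 35.6 (-5.19). DEPDC1 had medians of 3.87 CPM in [B] cells and 85.4 CPM in [N] cells (-4.15).

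Every [B] cell was above every [N] cell in 7 kept entries of 9616 (0.0728%): KRTAP2-3, KRTAP2-4, KRTAP3-1, HLA-B, RPS12 and a second entry each of KRTAP3-1 and KRTAP2-3. Every [B] cell was below every [N] cell in 21 (0.218%). These 28 entries were named after their values were seen. Among the 21 were the mitotic genes MAD2L1, AURKB, BIRC5, UBE2C and OIP5, with HMGB2, RRM2, CDC7, PARPBP and ASNS. AURKB, the kinase of the chromosomal passenger complex, was 0 to 144 CPM in [B] cells, with a median of 20.5, against 151 to 259 CPM in [N] cells, with a median of 225 (difference -3.40). BIRC5, survivin, of the same complex, was 0 to 391.8 CPM in [B] cells, with a median of 51.9, against 423 to 753 CPM in [N] cells, with a median of 555 (-3.39). Others have roles outside the cell cycle, such as PTGES3, a co-chaperone, with medians of 486 CPM in [B] cells and 935 CPM in [N] cells (-0.94), TCP1, a subunit of the chaperonin for actin and tubulin, with 499 CPM in [B] cells and 966 CPM in [N] cells (-0.95), and FH, fumarate hydratase, with 50.3 CPM in [B] cells and 112.4 CPM in [N] cells (-1.15). The remaining ones were EXOSC3, PXMP2, MAGOHB, COQ7, DEPDC7, RANBP1, CNOT9 and PHF19.

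**Figure D5:**
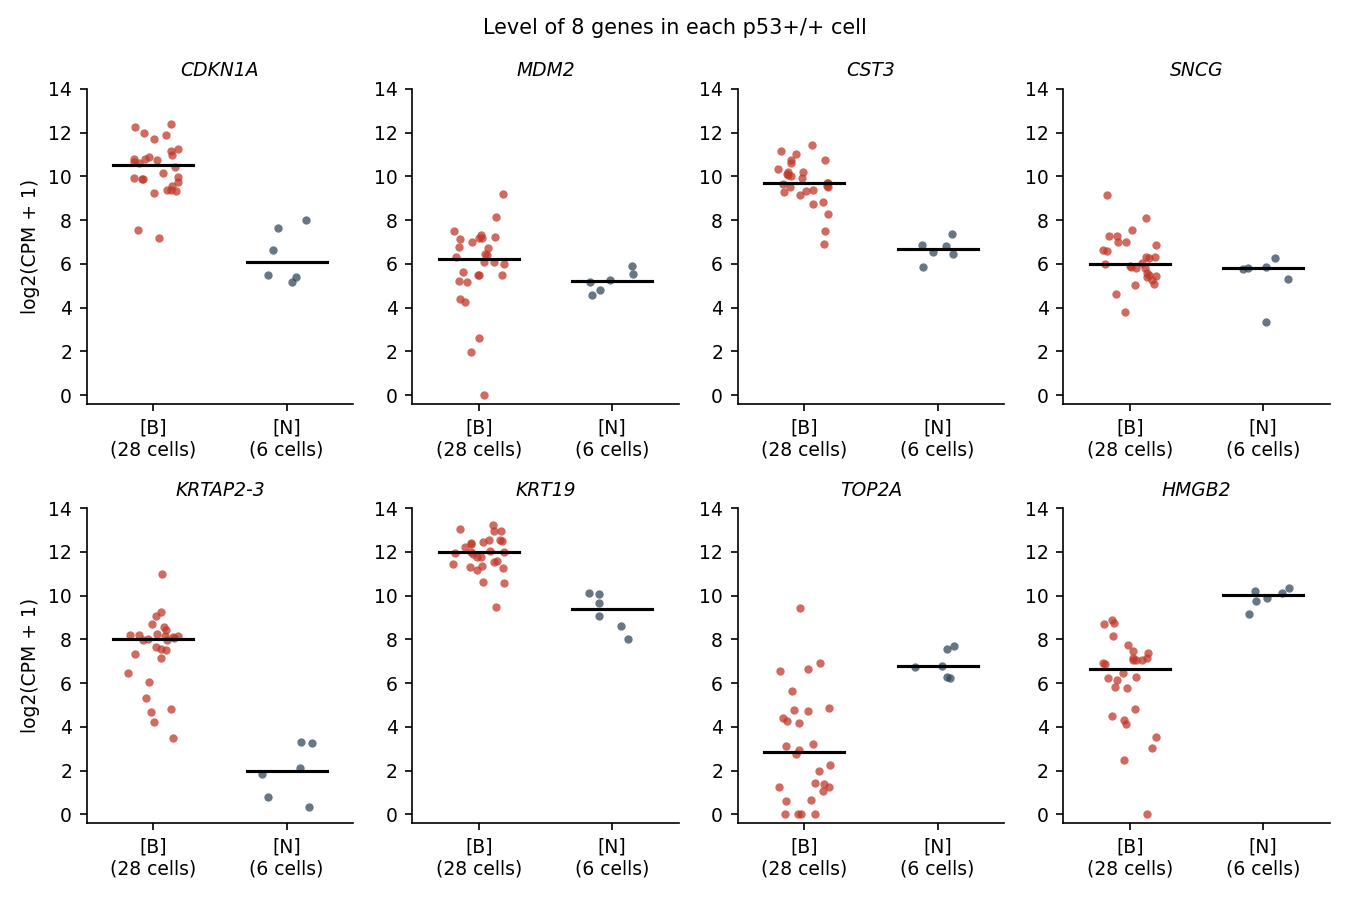
Named genes in every cell. Each point is 1 p53+/+ cell at its log2(CPM + 1), [B] cells left of [N] cells, for genes described in the text, and bars are medians over cells. CDKN1A medians are 1485 CPM in [B] cells and 72.4 CPM in [N] cells, and HMGB2 and KRTAP2-3 show no overlap between stages.

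Some keratins and attachment genes were higher, and the [N] cells were uneven in them. Of 13 listed keratins 5 were kept, 2 were past 4-fold higher, and the median difference was 1.52. The list level was 3.27 to 4.83 in [B] cells (median 4.002) and 2.56 to 3.56 in [N] cells (median 3.02), with 23 [B] cells above every [N] cell. With 0109N1, 0109N5 or 1115N12 left out the median difference was 2.50. KRT19, of simple epithelia, was 714 to 9733 CPM in [B] cells, with a median of 4042, against 262 to 1119 CPM in [N] cells, with a median of 676 (difference 2.61), with 27 [B] cells above every [N] cell. KRT8, the partner of KRT18, was 414 to 12030.1 CPM in [B] cells, with a median of 4041, against 272 to 3479 CPM in [N] cells, with a median of 1743 (1.52). In [N] cells KRT8 was 272 to 712 CPM in 0109N2, 0109N3 and 0109N4 and 2774 to 3479 CPM in the other 3.

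Of 19 junction genes 16 were kept and 2 were past 4-fold higher, with a median of 0.44. JUP, plakoglobin, of desmosomes and adherens junctions, was 17.8 to 472 CPM in [B] cells, with a median of 175, against 5.82 to 113.8 CPM in [N] cells, with a median of 33.8 (difference 2.39). PKP3, a desmosome plaque protein, was 0 to 106.5 CPM in [B] cells, with a median of 41.0, against 2.57 to 75.97 CPM in [N] cells, with a median of 9.58 (2.22), and only 4 [B] cells were above every [N] cell. CLDN4, a tight junction claudin, was 24.4 to 2692 CPM in [B] cells, with a median of 222, against 20.1 to 218 CPM in [N] cells, with a median of 67.0 (1.84). The level of the whole list in 21 of 28 [B] cells was within the [N] range.

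Hemidesmosomes anchor epithelial cells to laminin-332. All 15 listed genes were kept, 4 were past 4-fold higher, and the median was 0.84. The list's median GC share was 57.4%, and all kept genes in the class highest in GC had a median difference of 0.57. COL17A1, a transmembrane collagen of this structure, was 0 to 34.9 CPM in [B] cells, with a median of 10.3, against 0 to 0.0643 CPM in [N] cells, with a median of 0 (difference 3.50). It was read in 25 [B] cells above the highest [N] value, and 5 of the 6 [N] cells had no count. PLEC, plectin, which ties keratins to the junction, was 0.606 to 584 CPM in [B] cells, with a median of 228, against 9.65 to 127 CPM in [N] cells, with a median of 32.6 (2.90). Of its laminin chains, LAMA3 had medians of 11.6 CPM in [B] cells and 1.55 CPM in [N] cells (2.31) and LAMB3 of 16.4 CPM in [B] cells and 2.93 CPM in [N] cells (2.15). Across the [B] cells the level of this list moved with the number of detected genes after thinning (Pearson r = 0.74 and Spearman rho = 0.55, 28 cells), and its part in the values was not tested.

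Markers of regenerating and fetal-like intestine lay on both sides of 0. Of 14 listed, 11 were kept, 1 was past 4-fold higher and 1 lower, with a median of 0.13. Of the kept genes 6 lay above 0 and 5 below. The list level was 4.78 to 7.12 in [B] cells (median 6.19) and 5.67 to 6.16 in [N] cells (median 5.97). By this level 16 [B] cells were above every [N] cell and 3 below all of them. MSLN, mesothelin, was 0 to 102.5 CPM in [B] cells, with a median of 32.1, against 0 to 31.1 CPM in [N] cells, with a median of 2.77 (difference 3.22). ANXA10, an annexin, was 0 to 54.4 CPM in [B] cells, with a median of 0.171, against 0 to 35.6 CPM in [N] cells, with a median of 14.4 (-3.71). S100A6, a calcium-binding protein, was 1262 to 17753 CPM in [B] cells, with a median of 4838, against 583 to 2365 CPM in [N] cells, with a median of 1559 (1.64). Of 15 crypt-base stem cell markers 6 were kept, none was past 4-fold, and the median was 0.02. LGR5, ASCL2 and OLFM4, which define that cell, had medians of 0 in both stages.

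Stress and metabolic genes held single large differences inside lists with medians near 0. Of the unfolded protein and integrated stress response, 18 of 19 were kept, 1 was past 4-fold higher and 2 lower, with a median of -0.13. ATF3, a stress-induced transcription factor, was 0 to 562 CPM in [B] cells, with a median of 162, against 4.12 to 18.7 CPM in [N] cells, with a median of 8.999 (difference 4.05), with 27 [B] cells above every [N] cell and 1, cell 1082G, at 0. ASNS, asparagine synthetase, was 1.99 to 127 CPM in [B] cells, with a median of 55.7, against 185 to 388 CPM in [N] cells, with a median of 250 (-2.15), without overlap. PHGDH, the first enzyme of serine synthesis, was 0 to 118 CPM in [B] cells, with a median of 15.6, against 44.7 to 115.6 CPM in [N] cells, with a median of 98.9 (-2.59). ASNS and PHGDH are both targets of the factor ATF4, and DDIT3, another of its targets, had medians of 23.7 CPM in [B] cells and 26.5 CPM in [N] cells (-0.15).

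Of cytosolic chaperones and heat shock proteins 11 of 14 were kept, 10 lay below 0, and none was past 4-fold, with a median of -0.54. HSP90AA1, the inducible HSP90, was 727 to 6221 CPM in [B] cells, with a median of 1614, against 2959 to 4634 CPM in [N] cells, with a median of 3851 (difference -1.25). HSPE1, a heat shock protein of mitochondria and not of the cytosol, had medians of 503 CPM in [B] cells and 1217 CPM in [N] cells (-1.26). Of sterol and fatty acid synthesis 28 of 31 were kept, 20 lay below 0 and 2 were past 4-fold lower, with a median of -0.49. INSIG1, a sterol-responsive brake on the pathway, was 0 to 135 CPM in [B] cells, with a median of 10.3, against 39.3 to 77.5 CPM in [N] cells, with a median of 52.9 (-2.26), and STARD4, a sterol carrier, had medians of 2.22 CPM in [B] cells and 13.97 CPM in [N] cells (-2.16).

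SLC2A1, the glucose transporter GLUT1, was 17.8 to 1409 CPM in [B] cells, with a median of 329, against 22.3 to 193 CPM in [N] cells, with a median of 81.4 (difference 2.11), the 1 gene past 4-fold among 22 kept of 25 glycolysis and hypoxia genes. SLC7A11, the cystine importer, was 0 to 239 CPM in [B] cells, with a median of 6.25, against 20.6 to 86.7 CPM in [N] cells, with a median of 39.6 (-2.46), the 1 gene past 4-fold lower among 19 kept of 24 NRF2 and metal-response genes. NQO1, an NRF2 target, was 216 to 2362 CPM in [B] cells, with a median of 722, against 1495 to 1992 CPM in [N] cells, with a median of 1815 (-1.33). Of the immediate early genes 13 of 17 were kept and none was past 4-fold: JUND had medians of 47.0 CPM in [B] cells and 11.7 CPM in [N] cells (1.94), JUNB of 49.9 CPM in [B] cells and 17.7 CPM in [N] cells (1.92), FOS of 3.86 CPM in [B] cells and 15.3 CPM in [N] cells (-1.75) and EGR1 of 8.06 CPM in [B] cells and 27.9 CPM in [N] cells (-1.70). JUND and JUNB thus lay above 0 and FOS and EGR1 below it, while 10 of the 13 kept genes lay above 0.

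Ribosomal protein genes were slightly higher as a group. Of 80 listed 79 were kept, none was past 4-fold, 66 lay above 0, and the median was 0.40. RPS12, of the small subunit, was 425 to 3592 CPM in [B] cells, with a median of 857, against 291 to 411 CPM in [N] cells, with a median of 374 (difference 1.20), without overlap. RPL28, of the large subunit, was 239.8 to 1973 CPM in [B] cells, with a median of 602, against 177 to 266 CPM in [N] cells, with a median of 222 (1.43). These genes have many processed pseudogenes, which can take reads from them.

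Some noncoding RNAs were higher and varied widely between cells. Of 15 listed 13 were kept and 2 were past 4-fold higher, RN7SL1 and RN7SL2, near copies of the 7SL RNA of the signal recognition particle. RN7SL2 was 0.126 to 8398 CPM in [B] cells, with a median of 885, against 48.1 to 388 CPM in [N] cells, with a median of 98.6 (difference 3.17). The 3 main 7SL genes together took 77.2 to 15745 CPM in [B] cells (median 1879) and 103.1 to 820 CPM in [N] cells (median 207). RNA18SN4, a copy of 18S ribosomal RNA, was 0.0866 to 1038 CPM in [B] cells, with a median of 59.8, against 0.0468 to 23.4 CPM in [N] cells, with a median of 1.88 (4.52). Ribosomal and 7S RNAs together took 0.024% to 4.05% of counts in [B] cells and 0.025% to 0.159% in [N] cells, and reads can be split between their copies. ZFAS1, a host gene of small nucleolar RNAs, was 71.2 to 1915 CPM in [B] cells, with a median of 295, against 84.3 to 136 CPM in [N] cells, with a median of 112.5 (1.38). MALAT1, a nuclear RNA, was 39.5 to 21680.3 CPM in [B] cells, with a median of 1987, against 1145 to 5125 CPM in [N] cells, with a median of 3262 (-0.70). Of mitochondrial rRNA, the entry RNR2 was 0 to 103477 CPM in [B] cells, with a median of 38992, against 3751 to 8114 CPM in [N] cells, with a median of 6382 (2.61), while RNR1 had medians of 4974 CPM in [B] cells and 3846 CPM in [N] cells (0.37).

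The [B] cells were not alike. Over the 28 cells the mitosis level moved with the replication level (Pearson r = 0.93 and Spearman rho = 0.95), but hardly with CDKN1A (Pearson r = -0.32 and Spearman rho = -0.10). The p53 target level, which includes CDKN1A, moved with it (Pearson r = 0.70 and Spearman rho = 0.71), and the interferon-stimulated level moved with the RNA sensing level (Pearson r = 0.80 and Spearman rho = 0.70). Each pair shares its library, depth and scaling, and cells of 1 stage are not replicates. The mitosis level was only loosely related to 7SL (Pearson r = -0.34 and Spearman rho = -0.37) and to the number of detected genes after thinning (Pearson r = 0.31 and Spearman rho = 0.15). That number was more closely related to the levels of RNA sensing (Pearson r = 0.74 and Spearman rho = 0.49), p53 targets (0.54 and 0.39) and interferon-stimulated genes (0.52 and 0.39). Its part in these pairs was not tested.

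The 2 [B] cells with a mitosis level within the [N] range were different in p53 targets. Cell 1219G3 had a mitosis level of 6.64, CDKN1A at 1011 CPM, MKI67, a marker of cycling cells, at 275 CPM and a p53 target level of 5.93. Cell 80825 had a mitosis level of 6.91, CDKN1A at 145 CPM, MKI67 at 758 CPM and a p53 target level of 4.38. High mitosis genes thus occurred together with high CDKN1A in 1219G3 and with the lowest CDKN1A of all [B] cells in 80825. Cell 80825 also had 13618 CPM of 7SL RNA, CST3 at 121 CPM and KRTAP2-3 at 10.3 CPM, the lowest of any [B] cell for the last 2. KRT19 was 1589 CPM in 80825 and 1514 CPM in 1219G3, above every [N] cell.

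Name prefixes with 3 or more [B] cells differed in level. The median mitosis level was 4.32 in the 5 cells 1081G to 1085G, 4.27 in the 3 cells 1219G1 to 1219G3, 3.92 in the 6 cells of 1 prefix that include 72610 and 7268, 3.93 in the 3 cells 80210, 8025 and 8029, and 1.75 in the 5 cells from 80811 to 80825. For p53 targets the medians were 6.31, 5.93, 6.06, 6.02 and 4.71 in the same order. The last of these sets was the lowest of the 5 in both, and it also held cell 80825 with the highest mitosis level. For interferon-stimulated genes they were 3.81, 3.26, 3.11, 3.98 and 2.83. The median mitosis level of every one of these prefixes was below that of the [N] cells (6.81), and the median p53 target level of every one was above theirs (4.22). The shallowest cell, 80817 of the same set, had 4056329 counts and 5911 detected genes, and 1082G had 8727. Without these 2 cells, which were left out after seeing the data, 208 genes were past 4-fold higher and 257 lower.

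Detection gives another view of the same values. The genes below were named for large differences of medians. A difference in detection follows in part from that choice and is no separate support. With every cell thinned to 4056329 counts, KRTAP3-1 was detected in 27 of the 28 [B] cells after thinning (96.4%, exact binomial interval 81.7% to 99.9%; 28 before thinning), against 0 of the 6 [N] cells (0%, 0% to 45.9%; 2 before thinning). COL17A1 was detected in 25 of the 28 [B] cells after thinning (89.3%, exact binomial interval 71.8% to 97.7%; 26 before thinning), against 0 of the 6 [N] cells (0%, 0% to 45.9%; 1 before thinning). CEACAM1 was detected in 25 of the 28 [B] cells after thinning (89.3%, exact binomial interval 71.8% to 97.7%; 25 before thinning), against 1 of the 6 [N] cells (16.7%, 0.421% to 64.1%; 1 before thinning). These 3 genes were thus read in nearly every [B] cell and in few or no [N] cells. On the lower side, NEIL3 was detected in 12 of the 28 [B] cells after thinning (42.9%, exact binomial interval 24.5% to 62.8%; 13 before thinning), against 6 of the 6 [N] cells (100%, 54.1% to 100%; 6 before thinning). CCNE2 was detected in 16 of the 28 [B] cells after thinning (57.1%, exact binomial interval 37.2% to 75.5%; 18 before thinning), against 6 of the 6 [N] cells (100%, 54.1% to 100%; 6 before thinning). KIF14 was detected in 20 of the 28 [B] cells after thinning (71.4%, exact binomial interval 51.3% to 86.8%; 20 before thinning), against 6 of the 6 [N] cells (100%, 54.1% to 100%; 6 before thinning). Of the 45 mitosis genes all 45 were detected in every [N] cell and 4 in every [B] cell. The median share of [B] cells was 89.3%, so most of these genes were still read in most [B] cells.

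Sums over cells give the precision of counting, which is far finer than the spread between cells. CDKN1A summed to 1853 CPM from 1652735 counts over the [B] cells (exact Poisson interval 1850.4 to 1856), against 79.6 CPM from 11635 counts over the [N] cells (78.2 to 81.1). KIF11 summed to 6.68 CPM from 5955 counts over the [B] cells (exact Poisson interval 6.51 to 6.85), against 49.5 CPM from 7233 counts over the [N] cells (48.4 to 50.6). These reads carry no molecular identifiers, and the Poisson intervals cover counting error only. The exact binomial intervals for detection instead take each cell as a separate draw. Cells of the same stage are not replicates, so those intervals do not cover the spread between cultures. For KIF11 the sum lies above the median of 1.91 CPM in [B] cells, since the high cells enter it in full.

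In the other stages the same genes had the following medians, side by side and without a test of any difference between comparisons. CDKN1A was 2435 CPM in 6 [P] cells at day 7, 1485 CPM in [B] cells and 641 CPM in 21 [S] cells at day 10, and 1145 CPM in 11 [R] cells at day 30. The mitosis level was 3.64 in [P] cells, 3.56 in [B] cells, 4.59 in [S] cells and 5.99 in [R] cells, against 6.81 in [N] cells. CST3 was 477 CPM in [P] cells, 840 CPM in [B] cells, 495 CPM in [S] cells and 172 CPM in [R] cells, against 101.5 CPM in [N] cells. In order of time, [P] and [B] cells thus had nearly the same mitosis level, and [S] and [R] cells higher ones.

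In the p53-/- line, CDKN1A had a median of 210.2 CPM in 8 [B] cells and 83.8 CPM in 7 [N] cells. The p53 target level was 4.76 in p53-/- [B] cells and 4.30 in p53-/- [N] cells, and the mitosis level 5.32 in p53-/- [B] cells and 7.201 in p53-/- [N] cells. KRTAP2-3 had medians of 66.4 CPM in p53-/- [B] cells and 8.43 CPM in p53-/- [N] cells, and ISG15 of 2043 CPM in p53-/- [B] cells and 157 CPM in p53-/- [N] cells. Higher medians of KRTAP2-3 and ISG15 and a lower median mitosis level in [B] cells than in [N] cells were thus also measured without p53. KRTAP2-3 overlapped between these stages, at 1.86 to 1591 CPM in p53-/- [B] cells and 1.87 to 32.9 CPM in p53-/- [N] cells. KRTAP3-1 was near 0 in both, with medians of 0.68 CPM in p53-/- [B] cells and 0.134 CPM in p53-/- [N] cells.

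The label of a colorectal cancer line was checked against marker lists. EPCAM, the epithelial adhesion molecule, was 96.3 to 1119 CPM in [B] cells, with a median of 575, against 579 to 837 CPM in [N] cells, with a median of 768, and KRT8 and KRT18 were read in all 34 cells. Several markers of mature colon epithelium were scarce, and 7 of the 12 epithelial genes did not pass the filter. Of the 9 fibroblast, 5 endothelial and 5 erythroid markers none was kept, with a mean log2(CPM + 1) over each list of at most 0.77, 1.19 and 1.73 in any [B] cell and 0.24, 0.13 and 0.77 in any [N] cell. Of the 10 leukocyte markers CD68, a lysosomal protein, was the 1 kept, with medians of 12.9 CPM in [B] cells and 5.65 CPM in [N] cells, while PTPRC, CD3E, CD3D and MS4A1 had no count in any of the 34 cells.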

How the data were processed

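Single HCT116 cells were lysed and their mRNA reverse transcribed and amplified over its full length with a SMART-seq type kit (Vazyme N712). Libraries were made with a second kit (Vazyme TD503), per the labels, and the labels and the study's methods name different Illumina sequencers for them. The authors deposited 1 table of whole-number read counts per gene and cell, not normalized and without molecular identifiers. Their methods name fastp for trimming, HISAT2 2.0 for alignment to GRCh38 and StringTie for expression, and their processing notes also list RSEM, Bowtie2, DESeq2 and mm10 without a role. The sources used here do not state which tool made the counts or whether strand was used.

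All 115 columns matched a label, and 0 were left unmatched. Counts were scaled to CPM by the cell's total, logged as log2(CPM + 1) and compared as medians over cells, with genes kept at a mean of group medians of at least 5 CPM. Detection used cells thinned to 4056329 counts and exact binomial 95% intervals, sums exact Poisson intervals. Depth ran from 4056329 to 81951140 counts per cell. The table held 3837 names with an added number (second copies of a name), kept as separate entries, and septins under names turned into dates (2-Sep, 7-Sep, 9-Sep). No 2 cells held identical counts.

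Lists were 36 in number with 776 entries, of which 763 were found. Members and lists were chosen with earlier results of these data known. Named genes are up to 4 kept members of a list with the largest absolute difference, the 10 kept genes with the largest rise and fall (higher median at least 20 CPM, the same side in every [B] prefix with 3 or more cells, an unnumbered symbol), and CDKN1A, MDM2, CST3 and SNCG. Further list members and the non-overlapping genes were named after their values were seen. Some list members are counted but not reported here by name. Motifs were searched in RefSeq promoter windows of GRCh38.p14. Scripts ran in Python 3.11.15 with numpy 2.4.6, pandas 2.3.3, scipy 1.17.1 and matplotlib 3.10.9 and were tested on simulated data. Alternatives covered scaling, pseudocount, filter, summary over cells, depth, GC content, numbered entries, single cells, prefixes and the fold limit.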

Additional observations from a re-analysis of the deposited data

Results flagged for a closer look

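Among 41 measures of the 6 [N] cells (library measures and list levels), 2 had 1 cell far from the others by Dixon's limit for 6 values, which chance passes in about 1 in 20 groups, and both concerned cell 0109N1. A count of 2 among 41 is near that rate. Its 50 highest genes took 15.8% of counts, with the nearest other [N] cell at 17.3%. Its level of RNA sensing genes, the mean log2(CPM + 1) over the list, was 4.33, with the nearest other [N] cell at 3.82. The [B] cells, being more than 10, were not examined in this way.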

How the results depend on the processing

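No p-value was computed, so the alternatives bear on sizes and counts. Of 930 list medians recomputed under 15 alternatives and 15 leave-one-out settings 14 moved, and of 4000 gene differences 85 moved and 0 reversed. Moved means a shift of at least the standard deviation over the [B] cells. Reversed means a change of sign in a difference past 4-fold, so smaller differences could not be counted as reversed. With 1 [N] cell or 1 [B] prefix left out, some list medians near 0 changed sign. That of G1 cyclins and inhibitors ran from -0.32 to 0.29. Past 4-fold were 1.99% of kept genes higher and 2.80% lower. With a pseudocount of 10 CPM these shares were 0.478% and 1.09%, at a 2-fold limit 10.8% and 11.9% (1038 and 1146 genes), and at an 8-fold limit 0.489% and 0.957% (47 and 92 genes). The higher share was 1.51% (88 genes) with a filter of 20 CPM, 1.32% (127 genes) with means over cells, 3.25% (312 genes) without the [N] cell of prefix 1115, and 1.25% (118 genes) with the median of genes of like GC content subtracted, an alternative chosen after seeing the data. With 1 [N] cell or 1 [B] prefix left out, the higher share ranged from 1.51% to 3.37% (146 to 321 genes) and the lower share from 2.37% to 3.30% (230 to 315 genes). Scaling without mitochondrial and the 50 highest genes moved the median of all kept genes to 0.037, against -0.08.

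Without a filter the list medians were 0.71 for MHC class I, 0 for secreted factors, 0.67 for keratins and 0 for epithelial markers, since genes at or near 0 entered. With prefixes weighted alike the chaperone median was -0.93. Without the [N] cell of prefix 1115 the keratin median was 2.50. With like GC content subtracted the histone median was 0.00057 and that of the budding panel genes examined 0.34. Leaving out 1 [N] cell or 1 [B] prefix gave keratin medians of 1.005 to 2.50 and epithelial marker medians of 0.32 to 1.62, while mitosis stayed between -3.78 and -3.18 and the p53 targets between 0.94 and 1.67. The cause of each shift other than the filter's was not tested. No paired analysis was possible because no result comes from a test and the stages share no replicate pairing in the labels. The 6 [N] cells, 5 of them of 1 prefix, limit every comparison.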
